A study of Mus musculus with 11 samples.

Results

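The mouse genes of the Polo-like kinase family Plk1, Plk2, Plk3 and Plk4 were followed in RNA sequencing of thymocytes, 4 genes out of 54418 in the count table. They were chosen by gene family and with earlier results of these data known, in which Plk2 differed between mutant and wild-type (wt) mice. Their differences from wt are therefore given as a description with no p, and where such a difference passed or missed a threshold this is stated only as a property of the fit. Among differences of the members between genotypes, a test is given only for the contrast between the mutants. Total RNA came from 5000000 cells of a whole-thymus suspension per mouse, taken at 8 to 12 weeks of age on a C57BL/6-WEHI background. There were 4 wt mice, 4 mice lacking Zmat3 (Zmat3-/-) and 3 triple knockout mice lacking Zmat3, Puma and p21 (Zmat3-/- Puma-/- p21-/-, here TKO). Zmat3 encodes an RNA-binding zinc-finger protein, Puma (gene symbol Bbc3) a pro-apoptotic BH3-only protein and p21 (Cdkn1a) an inhibitor of cyclin-dependent kinases, and all are targets of the transcription factor TRP53. By the study's description the mice were bred from knockout lines, with no cell type singled out, and the TKO mice shared the Zmat3 deletion with the Zmat3-/- mice.

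Polo-like kinases are serine/threonine kinases that carry a polo-box domain, through which PLK1 recognises phosphorylated partners. PLK1 drives mitotic entry, spindle assembly, chromosome segregation and cytokinesis, and PLK4 starts the duplication of centrioles, so that their transcripts are found in dividing cells. PLK2 and PLK3 behave differently: they were first described as products of immediate-early genes, induced within minutes by serum, growth factors or cellular stress, and both have been linked to TRP53 and the DNA damage response. The thymus contains rapidly dividing immature thymocytes and a large pool of resting ones, which makes it a tissue in which both kinds of Polo-like kinase can be read.

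All 4 genes are autosomal. On GRCm38, Plk1 (ENSMUSG00000030867.7) lies at chr7:122159439-122169873 on the plus strand, and its longest coding transcript has 10 exons and 2199 bases. Plk2 (ENSMUSG00000021701.8) lies at chr13:110395046-110400844 on the plus strand, with 14 exons and 2800 bases. Plk3 (ENSMUSG00000028680.14) lies at chr4:117128655-117133963 on the minus strand, with 15 exons and 2378 bases. Plk4 (ENSMUSG00000025758.10) lies at chr3:40800019-40816883 on the plus strand, with 16 exons and 3479 bases.

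The promoters are shown because the members differed in the response elements found there. RefSeq (GRCm38.p6) gave a window from 250 bases before to 50 bases after the transcription start for 4 of the 4 genes. Windows were searched on both strands for the cyclic AMP response element (CRE, TGACGTCA), its half-site (TGACG), the cell-cycle homology region (CHR, TTTGAA), the CCAAT box, the CArG box bound by serum response factor and the TRP53 half-site. Each full CRE also contains 2 overlapping half-sites, 1 on each strand. The 250 bases before the start are printed 5′ to 3′ on the strand of the gene. Capitals mark the full CRE in Plk2 (chr13:110394794-110395043, plus strand), both half-sites in Plk3 (chr4:117133964-117134213, minus strand) and the CCAAT box in Plk1 (chr7:122159185-122159434, plus strand).
Plk2: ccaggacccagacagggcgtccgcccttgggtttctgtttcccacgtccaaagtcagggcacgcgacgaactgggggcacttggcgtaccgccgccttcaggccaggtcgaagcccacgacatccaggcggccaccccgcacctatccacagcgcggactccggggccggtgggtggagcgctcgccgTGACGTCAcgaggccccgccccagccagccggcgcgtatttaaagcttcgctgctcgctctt
Plk3: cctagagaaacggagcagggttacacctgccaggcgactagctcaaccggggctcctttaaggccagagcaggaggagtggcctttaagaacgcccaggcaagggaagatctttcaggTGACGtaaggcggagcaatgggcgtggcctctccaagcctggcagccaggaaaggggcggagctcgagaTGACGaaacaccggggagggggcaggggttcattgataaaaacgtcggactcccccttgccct
Plk1: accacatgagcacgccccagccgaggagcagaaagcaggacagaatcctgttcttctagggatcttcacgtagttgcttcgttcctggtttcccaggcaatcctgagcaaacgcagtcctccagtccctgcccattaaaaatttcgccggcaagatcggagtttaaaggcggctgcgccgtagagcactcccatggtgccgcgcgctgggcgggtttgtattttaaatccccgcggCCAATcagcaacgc

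The Plk2 window held a full CRE starting 62 bases before the transcription start, a motif found in 1.79% of the 32851 windows of the same 300 bases, and a further half-site 22 bases after it. Plk3 held half-sites at positions -132 and -63 but no full CRE. A half-site was present in 20.8% of all windows, and Plk4 also held one, on the opposite strand at -30. Plk1 held a CCAAT box at -14, as did 37.4% of all windows, and a CHR at position 31 after the start (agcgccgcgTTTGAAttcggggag, chr7:122159456-122159479, with the CHR in capitals), as did 17.9%. None of the 4 windows contained a CArG box, found in 1.63% of all windows, or a TRP53 half-site, found in 8.36%. Of the genes encoding mitotic partners of PLK1 described later, 16 had a window. All 16 contained a CCAAT box and 9 a CHR. Such matches describe letters in a window and not occupancy by a factor.

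The deposited values were estimated counts per gene, with totals of 17669715 (TKO mouse 2) to 80207003 (TKO mouse 3) per mouse. Levels are given as CPM, the count divided by the library total and scaled to a total of 1000000 after TMM normalization. Without the TMM factors, 3 counts equalled 0.0374 to 0.170 CPM. Zmat3 was at 9.88 and 12.2 CPM in wt mice 1 and 2 and at 26.8 CPM in both wt mice 3 and 4, against 5.34 to 6.85 CPM in Zmat3-/- and 7.78 to 8.25 CPM in TKO mice. Bbc3 and Cdkn1a, also counted over the whole gene, were at 12.9 to 15.2 and 2.49 to 3.52 CPM in TKO mice and at 16.8 to 20.1 and 3.53 to 10.4 CPM in wt mice. Cdkn1a too differed between wt mice 1 and 2 (8.20 and 10.4 CPM) and wt mice 3 and 4 (3.53 and 4.15 CPM). Reads of all deleted genes thus remained in the mutants, none of the genes had an adjusted p below 0.05 in edgeR, and these whole-gene counts by themselves do not show the loss of a functional product. The 14 thymocyte marker genes summed to 14248 to 20092 CPM, with none at 0 in any mouse, while markers of stroma summed to 167 to 271 CPM, of myeloid cells to 228 to 506 CPM, of B cells to 463 to 849 CPM and of erythroid cells to 880 to 8558 CPM, again with none at 0. No gene of these 5 lists had an adjusted p below 0.05 in edgeR in any comparison, with 0 to 1 gene per list for TKO against wt, 0 to 4 for Zmat3-/- against wt and 0 between the mutants at an unadjusted p under 0.05. The wt libraries fell into pairs: chi-square per degree of freedom over genes was 46.4 between wt mice 1 and 2 and 11.9 between wt mice 3 and 4, against 265 to 345 across the pairs. The pairs also differed in Xist, the transcript of the inactive X chromosome, which reached 505 to 1485 CPM in 5 mice (the first 2 of wt, the first 2 of Zmat3-/- and the first of TKO) against 0.806 to 2.54 CPM elsewhere. The differences of the members from wt and the counts of list genes against wt are given with each pair left out, which was not done for single genes of the lists.

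Plk2, the stress-inducible kinase known for roles in centriole duplication and in synaptic down-scaling, was the only member whose wt range did not overlap the ranges of the mutants. Among wt mice Plk2 was at 1.25, 1.56, 0.539 and 0.577 CPM, from 41, 63, 13 and 15 counts. Among Zmat3-/- mice it was at 5.55, 5.79, 6.79 and 7.72 CPM, from 178 to 238 counts. The TKO mice had 8.05, 7.17 and 6.56 CPM, from 129 to 488 counts. Every mutant mouse was thus above every wt mouse, and the lowest Zmat3-/- mouse was 3.55 times and the lowest TKO mouse 4.19 times the highest wt mouse. The smallest of these counts, 13 in wt mouse 3, has a 95% exact Poisson interval of 6.92 to 22.2 counts, which covers counting error only. Within wt, mice 1 and 2 were above mice 3 and 4. In a thymus suspension, more cells that carry a transcript and more of it per cell cannot be told apart.

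**Figure D1:**
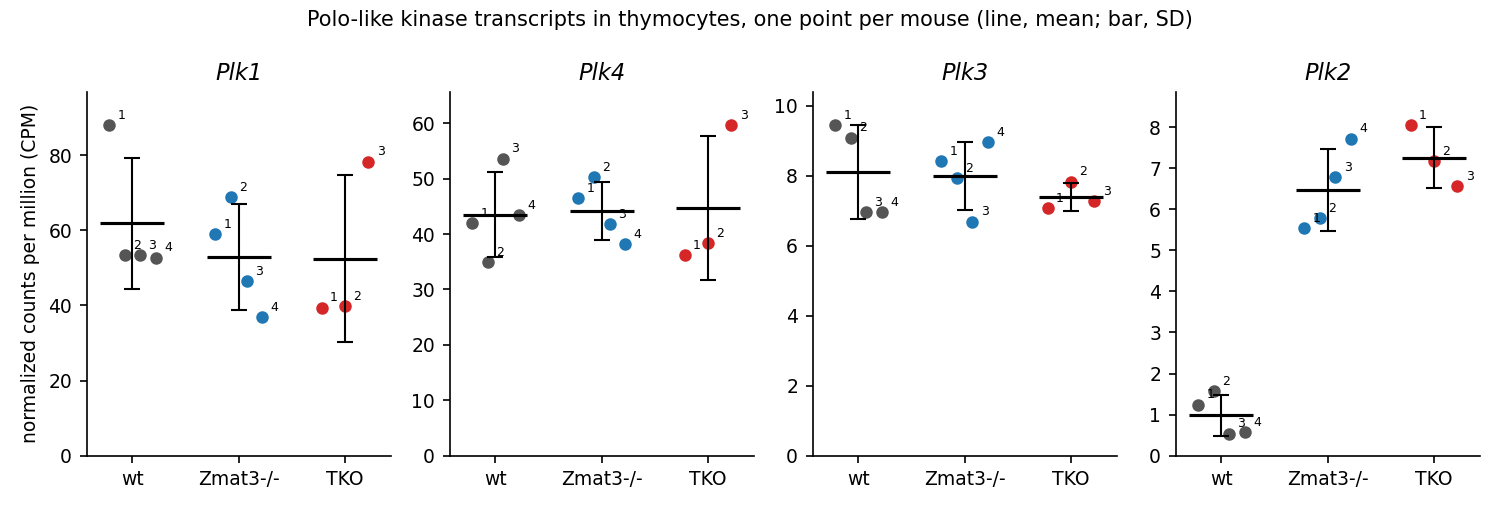
Normalized CPM of Plk1, Plk4, Plk3 and Plk2 (vertical axes from 0, a separate scale per gene) in 4 wt, 4 Zmat3-/- and 3 TKO mice; points are mice with their replicate number, lines group means and bars SD. Only for Plk2 do the wt mice (0.539 to 1.56 CPM) lie apart from all 7 mutant mice (5.55 to 8.05 CPM).

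The group means of Plk2 were 0.982 ± 0.506 CPM (SD, n = 4) in wt, 6.46 ± 0.995 CPM (n = 4) in Zmat3-/- and 7.26 ± 0.751 CPM (n = 3) in TKO mice. The fitted log2 fold change was 2.70 (SE 0.356) for Zmat3-/- against wt and 2.84 (SE 0.411) for TKO against wt, contrasts that share the same wt mice. These values ranked the 15th highest of 13488 and the 22nd highest of 13260 genes tested. A gene was called where its adjusted p (edgeR quasi-likelihood, Benjamini-Hochberg) was below 0.05 and its absolute log2 fold change above 1.5. Plk2 was the 1 member called in each contrast with wt, where 0.319% of genes were called for Zmat3-/- and 0.241% for TKO. Every mutant mouse was above every wt mouse for 7.31% of genes for Zmat3-/- and 6.95% for TKO. Since earlier results of these contrasts chose the members, nothing is read from those counts.

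The size of the Plk2 difference depended on which wt mice were used, and its direction was the same in the alternatives run. With the ranges apart, leaving out mice could not turn that direction. With wt mice 1 and 2 left out the log2 fold change was 3.50 for Zmat3-/- and 3.64 for TKO, and with wt mice 3 and 4 left out it was 2.20 and 2.35, a pair of alternatives chosen after the data were seen. Plk2 was past the threshold in these fits. The values for TKO fell short of it when any 1 of the 7 mice was left out (log2 fold change 2.64 to 3.14), and those for Zmat3-/- when any 1 of the 4 Zmat3-/- mice was left out, but not when a wt mouse was (2.51 to 3.00 over all 8). Plk2 also fell short in both contrasts with replicate number as a block in the fit. Nothing is read from these calls. Among mice with high Xist, Plk2 was at 1.25 to 1.56 CPM in wt, 5.55 to 5.79 CPM in Zmat3-/- and 8.05 CPM in the single TKO mouse. Among those with low Xist it was at 0.539 to 0.577, 6.79 to 7.72 and 6.56 to 7.17 CPM. The mutant mice were above wt in both sets, which had to follow since every mutant mouse was above every wt mouse.

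Mitochondrially encoded transcripts made up 4.25 to 6.31% of counts among wt mice, 6.54 to 14.6% among Zmat3-/- mice and 3.86 to 9.29% among TKO mice, so that they too were higher in all Zmat3-/- mice. The part of this difference in the Plk2 values was not tested. TKO mouse 3, with the lowest mitochondrial share of all mice at 3.86%, had 6.56 CPM of Plk2. Summed stroma markers were at 167 to 271 CPM in wt, 213 to 230 CPM in Zmat3-/- and 198 to 217 CPM in TKO mice, and summed myeloid markers at 241 to 436, 338 to 455 and 228 to 506 CPM, so these ranges overlapped between genotypes. Lyz2 alone made up 76.7 to 182 CPM of the myeloid sum. Of 11 myeloid genes tested, 5 were above 0 in log2 fold change in Zmat3-/- and 7 in TKO against wt, with medians of -0.038 and 0.021. The highest values were those of Adgre1 and Mpeg1, both macrophage genes, at 0.70 and 0.70 in Zmat3-/- against wt (adjusted p 0.115 and 0.0527 in edgeR) and 0.59 and 0.69 in TKO against wt (adjusted p 0.535 and 0.426 in edgeR), and the lowest was that of S100a9, a granulocyte gene, at -0.34 and -0.35. Pecam1 alone made up 94.2 to 142 CPM of the stroma sum. Of the stroma genes, 8 of 11 tested were above 0 in Zmat3-/- and 7 of 12 in TKO against wt, with medians of 0.28 and 0.17. They ran in Zmat3-/- from -0.53 for Epcam, an epithelial adhesion gene, to 1.30 for Col3a1, a fibrillar collagen gene (adjusted p 0.331 and 0.103 in edgeR), whose TKO value was 1.09 (adjusted p 0.61 in edgeR). At an unadjusted p under 0.05 there were 4 of 11 stroma and 2 of 11 myeloid genes in Zmat3-/-, where 16.1% of all genes had such a p, and 0 of 12 and 1 of 11 in TKO, beside 10.3%. Within wt these sums split by the same pairs as Plk2. Stroma markers summed to 271 and 258 CPM in wt mice 1 and 2 and to 167 and 183 CPM in wt mice 3 and 4, myeloid markers to 392 and 436 against 260 and 241 CPM, and B cell markers to 731 and 849 against 491 and 484 CPM. Erythroid markers split the other way, at 1079 and 880 against 8558 and 2171.5 CPM. So did thymocyte markers, at 14684.5 and 15301 against 17161 and 16090 CPM. Their part in the Plk2 values was not tested.

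Plk3, which encodes the other immediate-early Polo-like kinase, did not share this pattern. It was at 9.45, 9.09, 6.97 and 6.96 CPM in wt mice, at 8.42, 7.94, 6.69 and 8.97 CPM in Zmat3-/- mice and at 7.07, 7.83 and 7.28 CPM in TKO mice. All mutant values lay within the wt range apart from the 6.69 CPM of Zmat3-/- mouse 3. Here too wt mice 1 and 2 were above wt mice 3 and 4. The means were 8.12 ± 1.34 CPM in wt, 8.00 ± 0.972 CPM in Zmat3-/- and 7.40 ± 0.394 CPM in TKO mice (SD, n = 4, 4 and 3). The log2 fold change against wt was -0.014 (SE 0.158) in Zmat3-/- and -0.17 (SE 0.195) in TKO mice. With wt mice 1 and 2 left out these values became 0.18 and 0.025, and with wt mice 3 and 4 left out -0.20 and -0.35, and Plk3 was called in none of the alternatives.

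Because Plk2 and Plk3 share a class, their balance within each mouse was also computed as the log2 difference in CPM. Plk2 minus Plk3 was -3.56 to -2.50 in wt mice, -0.60 to 0.021 in Zmat3-/- mice and -0.15 to 0.19 in TKO mice. In the mutants the genes thus gave similar numbers of reads. Reads of a longer transcript weigh more in this difference, and per-length levels are given after the mitotic members.

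Plk1, the kinase of mitotic entry and chromosome segregation, was the most abundant member and varied widely within each genotype. It was at 88.0, 53.4, 53.3 and 52.7 CPM in wt mice, at 59.0, 68.9, 46.4 and 36.9 CPM in Zmat3-/- mice and at 39.4, 39.7 and 78.2 CPM in TKO mice. The highest values were those of wt mouse 1 and TKO mouse 3, and the ranges of all 3 genotypes overlapped. Means were 61.9 ± 17.4, 52.8 ± 14.0 and 52.5 ± 22.3 CPM (SD, n = 4, 4 and 3). The log2 fold change against wt was -0.22 (SE 0.233) in Zmat3-/- and -0.31 (SE 0.271) in TKO mice. Single mice moved these values: without wt mouse 1 they were -0.011 and -0.092, and without TKO mouse 3 the TKO value was -0.61 (SE 0.260). Over all fits with 1 mouse left out they ranged from -0.37 to -0.011 and from -0.61 to -0.092. With wt mice 1 and 2 left out they were -0.021 and -0.099, and with wt mice 3 and 4 left out -0.41 and -0.48.

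Plk4, which sets the number of centrioles, was at 42.0, 35.0, 53.6 and 43.4 CPM in wt mice, at 46.5, 50.2, 41.9 and 38.2 CPM in Zmat3-/- mice and at 36.1, 38.4 and 59.7 CPM in TKO mice. The ranges overlapped, and TKO mouse 3 was the highest of all mice. Means were 43.5 ± 7.67, 44.2 ± 5.25 and 44.7 ± 13.0 CPM (SD, n = 4, 4 and 3). The log2 fold change against wt was 0.026 (SE 0.151) in Zmat3-/- and -0.020 (SE 0.195) in TKO mice. With 1 mouse left out these values took either sign, from -0.077 to 0.15 and from -0.19 to 0.12. They were also of either sign by wt pair, at -0.15 and -0.19 with wt mice 1 and 2 left out and at 0.22 and 0.18 with wt mice 3 and 4 left out. Neither mitotic gene was called in any alternative. The fifth family gene, Plk5, had 0 to 3 counts in every mouse, at or under the floor of 3 counts.

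The contrast between TKO and Zmat3-/- mice, which uses no wt mice and asks what the additional loss of PUMA and p21 changed, gave no detectable difference for any member. The log2 fold change of TKO over Zmat3-/- was 0.13 for Plk2 (SE 0.180, 95% interval -0.27 to 0.53, a fold of 0.828 to 1.44), with an adjusted p of 0.983 in edgeR. It was -0.16 for Plk3 (SE 0.153, interval -0.51 to 0.18, adjusted p 0.983 in edgeR), -0.083 for Plk1 (SE 0.229, interval -0.59 to 0.43, adjusted p 0.985 in edgeR) and -0.047 for Plk4 (SE 0.131, interval -0.34 to 0.24, adjusted p 0.985 in edgeR). Differences within these intervals were not detectable with these mice, and the missed threshold does not show that the genotypes were alike. Calls were made for 0 of the 4 members, against 0.122% of 13124 genes tested. At an unadjusted p under 0.05 there were likewise 0 of 4, and DESeq2 called 0. Member ranges overlapped for all 4 genes, against 4.92% of genes whose ranges lay apart.

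**Figure D2:**
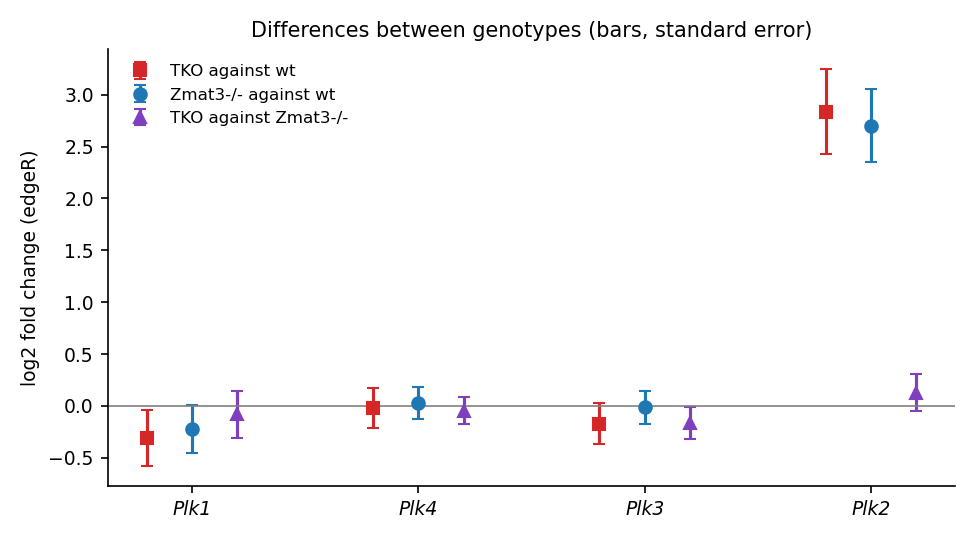
Fitted log2 fold changes (edgeR) of Plk1, Plk4, Plk3 and Plk2 in 3 comparisons, with standard errors as bars and a line at 0. Plk2 stands at 2.70 and 2.84 in the contrasts with wt and at 0.13 between the mutants, and the other values lie between -0.31 and 0.026.

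Levels of different genes were compared per length, as CPM per kilobase of the longest coding transcript. In wt mice Plk1 was at 23.96 to 40.0, Plk4 at 10.1 to 15.4, Plk3 at 2.93 to 3.97 and Plk2 at 0.193 to 0.559 CPM per kb. The order was the same in the mutants. In Zmat3-/- mice Plk1 was at 16.8 to 31.3, Plk4 at 10.99 to 14.4, Plk3 at 2.81 to 3.77 and Plk2 at 1.98 to 2.76 CPM per kb. In TKO mice these ranges were 17.9 to 35.6, 10.4 to 17.2, 2.97 to 3.29 and 2.34 to 2.88. Neighbours in the order did not overlap within any genotype, although in both mutants the highest Plk2 value came close to the lowest Plk3 value. Per kilobase of all annotated exons of a gene merged, Plk4 was at 5.10 to 7.82 and Plk2 at 0.120 to 0.348 in wt mice. Per-length levels and the family shares made from them thus depend on the length used.

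Plk2 made up 0.450 to 1.44% of the summed per-length level of the family in wt mice. In Zmat3-/- mice its share was 4.04 to 8.04%, and in TKO mice it was 4.03 to 8.42%. The mean share of Plk1 was 62.7% in wt, 56.0% in Zmat3-/- and 55.1% in TKO mice, that of Plk4 28.7, 30.2 and 30.5%, and that of Plk3 7.79, 8.15 and 7.80%. The ranges of these other shares overlapped between genotypes. The summed level of the family overlapped as well, with 38.7 to 56.5 CPM per kb among wt mice, 34.3 to 51.2 among Zmat3-/- mice and 34.2 to 58.1 among TKO mice. The mean of the log2 CPM of Plk2 and Plk3 minus that of Plk1 and Plk4 ran from -4.71 to -3.49 among wt mice, from -3.11 to -2.17 among Zmat3-/- mice and from -3.29 to -2.31 among TKO mice, a value that contains the Plk2 difference.

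**Figure D3:**
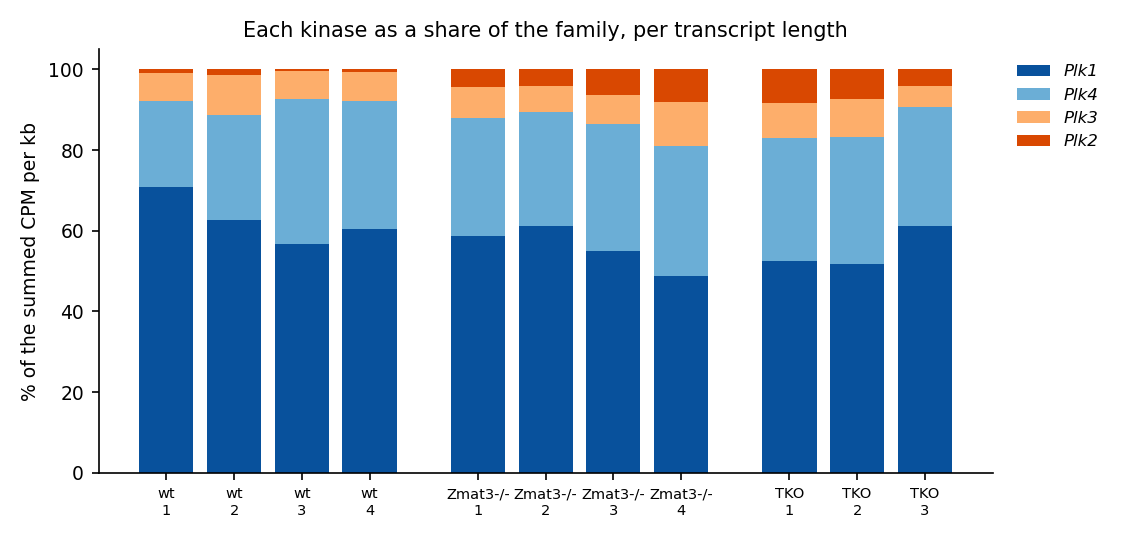
Share of each kinase in the summed CPM per kb of the 4 genes (vertical axis, percent) in each of the 11 mice, with 1 stacked bar per mouse. The Plk2 segment takes 0.450 to 1.44% of the bar in wt mice and 4.03 to 8.42% in mutant mice.

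Sequence shared with other genes was counted in transcripts, not in reads. Of 31-base words in the transcripts of Plk1, 18.7% also occurred in other genes, namely the pseudogene Plk-ps1, listed at 0.182 to 2.37 CPM, and the antisense model Gm44985, at 0 to 28 counts. For Plk4 the share was 7.04%, spread over many genes that include the gene model Gm9742 (0 to 2 counts) and Brd8 (121 to 204 CPM, above the level of Plk4). For Plk3 it was 2.11%, all in the neighbouring Tctex1d4 (0 to 15 counts), and for Plk2 it was 0. Plk2 thus shared no such word with another annotated transcript.

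The 24 genes encoding mitotic partners of PLK1 (among them CDK1, its cyclins and phosphatases, Aurora A and spindle checkpoint proteins) gave 0 genes at an adjusted p below 0.05 in edgeR in each of the 3 comparisons, and 0 in DESeq2. At an unadjusted p under 0.05 the counts were 0 for TKO against wt, 2 for Zmat3-/- against wt and 0 for TKO against Zmat3-/-, where 10.3%, 16.1% and 4.50% of all genes had such a p. Their median log2 fold changes were -0.12, -0.082 and -0.055, beside medians of -0.037, -0.026 and -0.0083 over all genes tested. The largest differences were -0.51 for Pkmyt1, which encodes an inhibitory kinase of CDK1, in TKO against wt and -0.42 for Bora, whose product activates PLK1, in Zmat3-/- against wt. Cdc25c, the CDK1 phosphatase, had -0.27 in TKO against Zmat3-/-.

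The 12 centriole partners of PLK4 likewise gave 0 genes at an adjusted p below 0.05 in edgeR and 0 in DESeq2, with 1, 1 and 0 genes at an unadjusted p under 0.05, beside the same 10.3%, 16.1% and 4.50% of all genes. Median log2 fold changes were 0.088 for TKO against wt, 0.11 for Zmat3-/- against wt and -0.020 for TKO against Zmat3-/-. Cep63, which encodes a centrosomal protein needed for centriole duplication, had -0.36 in TKO against wt and -0.17 in TKO against Zmat3-/-, and Cep85 had -0.45 in Zmat3-/- against wt. The mean log2 CPM of this list was 5.36 and 5.38 in wt mice 1 and 2 and 6.11 and 6.07 in wt mice 3 and 4, with the mutants at 5.66 to 6.15. These counts turned on the wt pairs. With wt mice 3 and 4 left out, 10 of 12 passed for TKO (8 higher, 2 lower) and 11 of 12 for Zmat3-/- (9 higher, 2 lower). With wt mice 1 and 2 left out 0 of 12 passed for TKO and 8 of 12 for Zmat3-/-, all 8 lower. For the mitotic partners, 5 of 24 (1 higher, 4 lower) passed for TKO and 9 of 24 (2 higher, 7 lower) for Zmat3-/- with wt mice 3 and 4 left out, against 0 and 2 (both lower) with wt mice 1 and 2 left out. Over all genes 43.6% passed for TKO and 56.1% for Zmat3-/- with wt mice 3 and 4 left out, and 8.15% and 33.0% with wt mice 1 and 2 left out, so these fits passed a large part of all genes. With 1 surrogate variable 1 centriole partner (lower) passed for TKO and 2 (1 higher, 1 lower) for Zmat3-/-, and 0 and 2 (both lower) of the mitotic partners, where 17.9% and 37.8% of all genes passed.

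Plk1 moved with its mitotic partners from mouse to mouse. Over 11 mice the log2 CPM of Plk1 and the mean log2 CPM of the 24 partners had a Pearson r of 0.968 (permutation p 1e-05, the smallest that 100000 permutations can give, adjusted 5e-05 over 5 relations) and a Spearman rho of 0.927 (permutation p 0.00012, adjusted 0.0006). Without wt mouse 1 and TKO mouse 3, farthest from the median of Plk1, r was 0.957. It was 0.987 over the 7 mutant mice and 0.992 over the 6 mice with low Xist, and no value is given for the 5 with high Xist, since at least 6 mice were required. Mice with more Plk1 thus also had more transcript of its partners, whatever their genotype. Both measures of a point come from the same library and the same cells.

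The other relations were weaker. Plk1 and Plk4 had an r of 0.609 (permutation p 0.0473, adjusted 0.0789) and a rho of 0.600 (permutation p 0.0559, adjusted 0.101), and r was 0.672 without wt mouse 1 and TKO mouse 3. Within the 7 mutant mice r was 0.973 and within the 6 mice with low Xist 0.926. Plk4 and its 12 centriole partners had an r of 0.649 (permutation p 0.0316, adjusted 0.0789) and a rho of 0.591 (permutation p 0.0606, adjusted 0.101), but r fell to 0.362 without TKO mouse 3 and wt mouse 3, so it rested on those mice. It was 0.704 over the mutant mice and 0.834 over those with low Xist. Plk3 had an r of 0.236 with Plk1 (permutation p 0.482, adjusted 0.482) and of -0.348 with Plk4 (permutation p 0.291, adjusted 0.364), with rho of 0.355 (permutation p 0.287, adjusted 0.359) and -0.273 (permutation p 0.419, adjusted 0.419). Over the mutant mice these r values were -0.109 and -0.0712, and over those with low Xist -0.543 and -0.464. For Plk2 the wt and mutant mice fell into separate clusters, and no relation with another member or with a gene list was computed.

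The immediate-early genes, the class to which Plk2 and Plk3 belong by their history, contained genes that rose in both mutants against wt. Of 23 genes, 7 were higher in TKO mice and 7 in Zmat3-/- mice at an adjusted p below 0.05 in edgeR, and 0 were lower, 5 being called in each. Over all genes 0.249% were higher and 0.0452% lower in TKO mice, and 0.4% were higher and 0.363% lower in Zmat3-/- mice. Median log2 fold changes were 0.90 and 0.53. The log2 fold change was above 0 for 18 of the 23 genes in each contrast and below 0 for the rest, down to -0.67 in TKO and -0.61 in Zmat3-/- mice. The list was written with earlier results of these data known and is not independent evidence of its direction. Between TKO and Zmat3-/- mice 0 of 23 passed in edgeR or DESeq2 (1 at an unadjusted p under 0.05), the median was 0.017, and 0.221% of all genes passed.

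Fosb, which encodes an AP-1 subunit, was at 2.93 ± 1.15 CPM in wt, 38.8 ± 10.6 CPM in Zmat3-/- and 44.2 ± 22.3 CPM in TKO mice (SD, n = 4, 4 and 3). Its log2 fold change was 3.73 in Zmat3-/- (adjusted p 0.00226 in edgeR) and 3.84 in TKO mice (adjusted p 0.0146 in edgeR). Sik1, a salt-inducible kinase gene, rose from 16.4 ± 2.44 to 122 ± 11.8 and 144 ± 11.2 CPM, with log2 fold changes of 2.90 and 3.09 (adjusted p 0.00011 and 0.000205 in edgeR). Klf4, a zinc-finger transcription factor gene, rose by 2.89 and 3.05 (adjusted p 0.000754 and 0.00631 in edgeR), and Dusp1, which encodes a MAP kinase phosphatase, by 2.28 and 2.37 (adjusted p 0.0148 and 0.035 in edgeR). The Plk2 values of 2.70 and 2.84 lay between those of Klf4 and Dusp1. The largest difference between the mutants was 0.37 for Fosl2, another AP-1 subunit gene.

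The mean log2 CPM of the 23 immediate-early genes was 4.95 and 5.00 in wt mice 1 and 2, 3.96 and 4.01 in wt mice 3 and 4, 5.50 to 5.85 among Zmat3-/- mice and 5.66 to 5.91 among TKO mice. It divided the wt mice into the same pairs as Plk2, with mice 1 and 2 higher. The count of genes at an adjusted p below 0.05 was 2 to 7 for TKO and 4 to 7 for Zmat3-/- with 1 mouse left out. It fell to 4 without wt mouse 2, 3 or 4 or TKO mouse 2, to 3 without TKO mouse 3 and to 2 without TKO mouse 1, and for Zmat3-/- to 4 without Zmat3-/- mouse 1, 2 or 4. With replicate number as a block in the fit the count was 2 for TKO and 4 for Zmat3-/-, with 0 lower. Some of the other settings passed genes in both directions. With wt mice 1 and 2 left out 17 were higher and 2 lower in TKO and 17 higher and 4 lower in Zmat3-/- mice, and with wt mice 3 and 4 left out 10 were higher and 5 lower in each. Over all genes 2.96% were higher and 5.19% lower in TKO and 16.9% higher and 16.1% lower in Zmat3-/- mice with wt mice 1 and 2 left out, and 22% and 21.7% in TKO and 27.4% and 28.7% in Zmat3-/- mice with wt mice 3 and 4 left out. DESeq2 gave 10 higher and 2 lower for TKO and 10 higher and 3 lower for Zmat3-/-, against 1.26% higher and 1.61% lower and 3.83% higher and 4.21% lower over all genes. With 1 surrogate variable, a term estimated from the counts to take up spread not tied to genotype, 18 were higher and 4 lower in TKO and 17 higher and 4 lower in Zmat3-/- mice, against 10.8% higher and 7.12% lower and 21.9% higher and 15.9% lower over all genes.

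The TRP53 target list, of interest because Plk2 and Plk3 have been described as TRP53-responsive and because the deleted genes are TRP53 targets, gave 0 of 20 tested genes at an adjusted p below 0.05 in edgeR in all 3 comparisons (3, 3 and 0 at an unadjusted p under 0.05, which 10.3%, 16.1% and 4.50% of all genes had). DESeq2 gave 0, 2 and 0, where it passed 2.87%, 8.05% and 0.556% of all genes. These counts lay near the shares over all genes. Median log2 fold changes were -0.071 for TKO against wt, -0.13 for Zmat3-/- against wt and 0.0070 for TKO against Zmat3-/-. Pmaip1, which encodes the BH3-only protein NOXA, had 0.75 in TKO (adjusted p 0.426 in edgeR) and 1.02 in Zmat3-/- mice against wt (adjusted p 0.0725 in edgeR), and Perp had -0.31 between the mutants. With wt mice 3 and 4 left out, 6 genes passed for TKO (3 higher, 3 lower) and 9 for Zmat3-/- (4 higher, 5 lower), and with wt mice 1 and 2 left out 2 (1 higher, 1 lower) and 5 (1 higher, 4 lower), in the same fits that passed 43.6% and 56.1% and then 8.15% and 33.0% of all genes. With 1 surrogate variable in the fit 4 passed for TKO (1 higher, 3 lower) and 8 for Zmat3-/- (4 higher, 4 lower), where 17.9% and 37.8% of all genes passed.

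**Figure D4:**
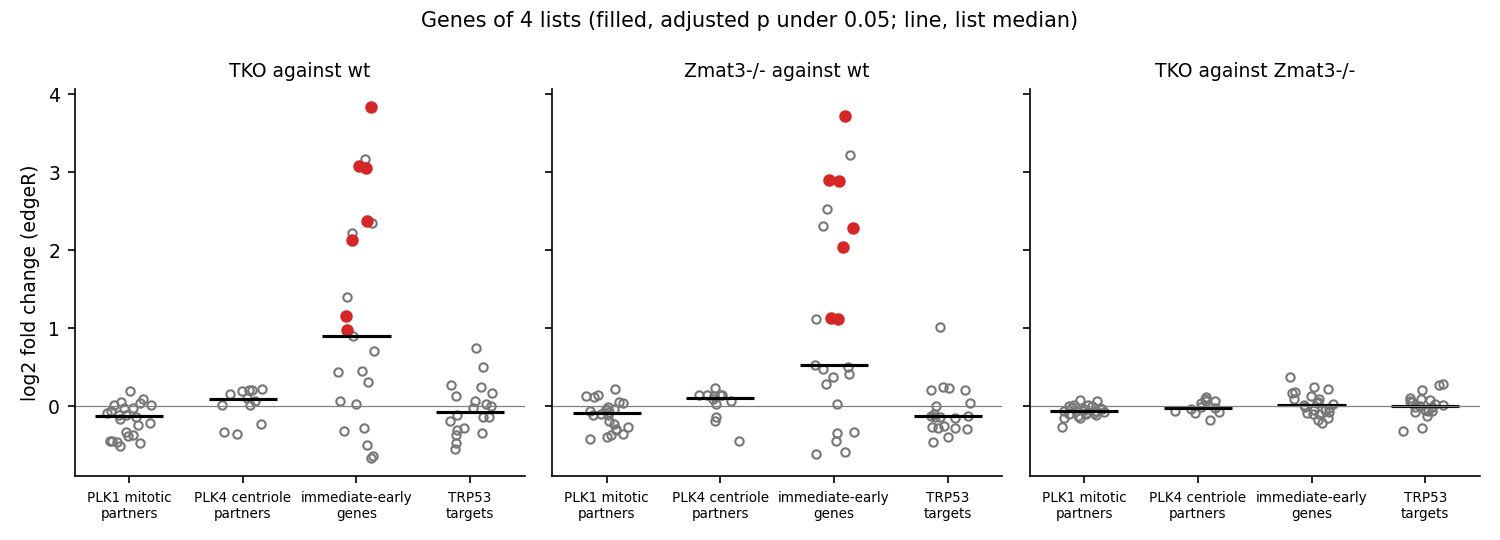
Log2 fold changes (edgeR, vertical axis) of genes in 4 lists in 3 comparisons; filled points had an adjusted p under 0.05, open points did not, and lines mark list medians. Filled points occur in the immediate-early list alone, 7 for TKO and 7 for Zmat3-/- against wt and 0 between the mutants.

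**Figure D5:**
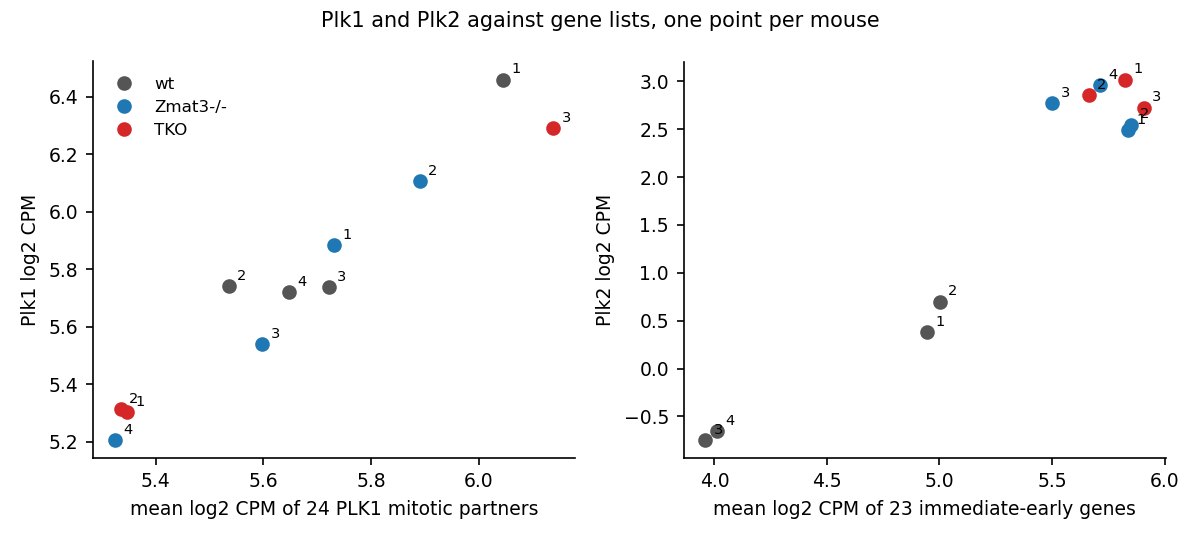
Left, log2 CPM of Plk1 against the mean log2 CPM of 24 mitotic partners; right, log2 CPM of Plk2 against the mean of 23 immediate-early genes, with 1 numbered point per mouse coloured by genotype. Plk1 follows its partners over all mice (r 0.968), while for Plk2 the 4 wt mice form pairs below the cluster of 7 mutant mice.

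The genes whose log2 CPM over the 11 mice was most like each member were found among 12956 genes tested in all comparisons, as a description over mice that differed in library depth and genotype. For Plk1 they were Nucks1 (r 0.998), Kifc1, Nek2, Asf1b and Tpx2 (0.977). For Plk2, where r over all mice mainly carries the gap between wt and mutant mice, they were Bambi (0.996), Gpr3, Dusp1 and Rgs2 (0.982). For Plk3 they were Tmod1 (0.917), Nhej1, Ramp3, Castor1 and Mid1ip1 (0.887), and for Plk4 Pask (0.981), Esco2, Iqgap3, Kif14 and Cip2a (0.952). With genotype means removed, Nucks1, Kifc1, Asf1b, Ccnf and Nek2 were nearest to Plk1 (0.992 to 0.998) and Cul2, Nbas, Pask, Esco2 and Iqgap3 to Plk4 (0.979 to 0.988). For Plk2 the nearest were then Rab28, Cd79b, Rgs2, Tec and Gm27221 (0.973 to 0.989), and for Plk3 Snupn, Tmod1, Comp, Rhof and Ramp3 (0.929 to 0.963). Nek2 and Tpx2 also belong to the partner list of PLK1, Dusp1 to the immediate-early list and Cd79b, near Plk2 with genotype means removed, to the B cell markers. Of the genes near Plk2 over all mice, Rgs2 was again among the nearest once the genotype means were removed. The log2 CPM of Plk2 then varied mainly among wt mice, with an SD of 0.729 against 0.217 in Zmat3-/- and 0.147 in TKO mice. Its r values with genotype means removed therefore largely carry the difference between the wt pairs.

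Immediate-early transcripts are often unstable and carry AU-rich elements, so the 3′ untranslated regions were searched for ATTTA. Plk3 had 4 copies in 332 bases, or 12.0 per kb, and 99.3% of 20815 genes had fewer per kb. Plk2 had 2 copies in 620 bases (3.23 per kb), Plk4 had 3 in 466 bases (6.44 per kb) and Plk1 had 0 in 283 bases. Over all genes 65.8% had at least 1 copy and the median was 1.26 per kb. The nonamer TTATTTATT was present in Plk2 in 1 copy and in Plk3 in 2 copies, against 7.73% of all genes with any. Plk2 thus lay between Plk1 and Plk4 in the density of ATTTA.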

How the data were processed

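Thymocyte RNA of 4 wt, 4 Zmat3-/- and 3 TKO mice was sequenced from TruSeq RNA libraries. The authors deposited estimated counts per gene, made with Salmon against GRCm38.p6 and GENCODE gene models, 1 column per mouse. All 598598 values were already whole, so rounding changed none. Symbols came from a GENCODE GRCm38 annotation, matching 54166 identifiers and leaving 252 unmatched.

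Genes were kept when they reached the equivalent of 20 counts of the smallest library in a number of mice equal to the smaller group, after leaving out ribosomal RNA, non-coding immunoglobulin, Xist and Y-linked genes. Each comparison was fitted on its own groups with TMM factors and the quasi-likelihood test of edgeR 4.0.16 (R 4.3.3), adjusted by Benjamini-Hochberg over all genes tested. Alternatives used DESeq2 1.42.0, sva 3.50.0, other scaling, filters and covariates, a replicate block, and each mouse left out. Correlations were computed on log2 CPM (prior count 2) with 100000 permutations.

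The members and gene lists were chosen with earlier results of these data known. By rule, the genes named were the members, the deleted genes, up to 4 genes per pathway list and comparison with the largest absolute log2 fold change among those passing, or the single largest where none passed, and the 5 genes most like each member, of which 1 is not reported here. Genes named outside this rule (Plk5, Xist, those sharing sequence with a member, and the cell type markers with the highest levels or with extreme fold changes) were chosen after their values were seen. Protein sequences were not analysed here.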

Additional observations from a re-analysis of the deposited data

Results flagged for a closer look

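Plk1 in wt mouse 1, at 88.0 CPM, lay far from the other 3 wt mice, which had 52.7 to 53.4 CPM, and the gap took up nearly the whole range of the group. Of 8 groups of 4 mice examined, 1 was flagged in this way. Chance alone flags about 1 in 20 such groups. In the same mouse the mean log2 CPM of the 24 mitotic partners was 6.05, against 5.54 to 5.72 in the other wt mice.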

How the results depend on the processing

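Plk2 was higher in both mutants than in wt under every alternative run, with log2 fold changes of 2.35 to 3.64 (TKO) and 2.20 to 3.50 (Zmat3-/-), and Plk1, Plk3 and Plk4 were called under none. Since the wt and mutant ranges of Plk2 lay apart, fits with mice left out could not turn its direction. Leaving out wt mice 1 and 2, chosen after the data were seen, gave 3.64 and 3.50 for Plk2 and 0.025 and 0.18 for Plk3, and leaving out wt mice 3 and 4 gave 2.35 and 2.20 for Plk2. Between TKO and Zmat3-/- mice, Plk4 turned from -0.047 to 0.025 with library totals in place of TMM factors, and with 1 mouse left out Plk1 ranged from -0.39 to 0.065 and Plk4 from -0.22 to 0.058. The causes were not tested. Of the counts of list genes passing, 174 stayed within 1.5 times, 27 rose and 11 fell further. All but the immediate-early counts against wt were 0 in the main fits and could not fall. A count that stayed at 0 is among the 174, which therefore do not measure how stable the immediate-early counts were.

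Genes called for TKO against wt (32) became 103 with DESeq2, 51 with no filter, 70 with all genotypes in one fit, 176 with 1 surrogate variable, 244 without wt mice 1 and 2, 672 without wt mice 3 and 4, and 15 to 35 with 1 mouse left out. For Zmat3-/- against wt (43) the counts were 123 with DESeq2, 71 in one fit, 215 with 1 surrogate variable, 441 without wt mice 1 and 2, 733 without wt mice 3 and 4 and 12 to 47 with 1 mouse left out. For TKO against Zmat3-/- (16) no filter gave 45.

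Whether replicate numbers pair the mice was not settled. Same-numbered deviations correlated at 0.071 to 0.386 for TKO and wt and 0.086 to 0.324 for Zmat3-/- and wt. For TKO and Zmat3-/- they correlated at -0.0038 to 0.166. Mice with different numbers were not compared, so these values cannot decide it. With a replicate block 16, 8 and 15 genes were called, Plk2 was no longer called (2.76 in TKO, 2.79 in Zmat3-/-), and immediate-early genes passing fell to 2 and 4. Plk2 had 13 to 63 counts in each wt mouse, where the wt pairs also differed.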
